A study of Homo sapiens with 28 samples.

Results

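Imprinted genes are transcribed mainly from 1 parental copy, and 30 of them were followed across human embryonal carcinoma (EC) and embryonic stem (ES) cell lines. The members were chosen by name: every transcript cluster and probeset annotated to a listed symbol was taken from the gene-level and exon-level tables. Of the 30, 21 had a cluster annotated to their symbol alone, and IGF2, PEG3, PLAGL1 and ZIM2 had only clusters that carry a second symbol. SLC22A18 had probesets but no cluster, and no feature of either table was annotated to H19, MEG3, PPP1R9A or ZDBF2. In all, 21 clusters of 22011 and 338 probesets of 287329 named 1 member alone, and another 4 clusters and 53 probesets named a member with another gene.

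Imprints are set in the germ line as DNA methylation that differs between the egg and the sperm, and they are kept through the genome-wide demethylation of the early embryo. A group of zinc finger proteins that includes ZFP57 binds the methylated copy and recruits TRIM28 and DNA methyltransferases to hold the mark. Germ cells erase their imprints, so tumours of germ cell origin can carry imprints that differ from those of somatic cells, and imprinted genes are a known site of variation among cultured ES lines. The arrays measured RNA from both copies together and cannot show which copy was transcribed.

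Cells sorted for the surface antigen SSEA3 gave RNA for 14 Affymetrix Human Exon 1.0 ST arrays, each summarised at gene and at exon level. The EC lines NTERA2, 2102Ep and 833KE, from germ cell tumours, were grown on a layer of mitomycin-inactivated mouse fibroblasts (feeders), in a knock-out DMEM with Serum Replacement and FGF added (n = 3). These lines together with NCCIT and TERA1 were also grown directly on plastic, in high-glucose DMEM and FCS (n = 5). The ES lines H14, Shef5, Shef 6, Shef3, H9 and Shef7, from embryos, shared the feeders and the medium of the first group (n = 6). Each array is a different line or growth condition, so an SD is the spread between lines, and p-values say nothing of repeat cultures of 1 line. The labels give no deletion or transgene for any line. EC on plastic against ES joins cell type and growth condition, which cannot be told apart in it, while EC on feeders against ES holds the growth condition fixed. The same 6 ES arrays serve both comparisons.

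The pluripotent state of the cells was read from 8 clusters of pluripotency markers. Their mean log2 level lay between 10.20 and 10.93 in EC on feeders, 10.14 and 11.34 in EC on plastic, and 9.99 and 11.09 in ES lines. The brightest NANOG probeset averaged 11.75 in EC on feeders, 12.33 in EC on plastic and 10.89 in ES lines. Over 18 clusters of 17 fibroblast marker genes the mean level ran from 5.89 to 6.15 in EC on feeders, 5.37 to 5.77 in EC on plastic and 5.83 to 6.74 in ES lines. In EC on plastic against ES, 1.34% of all clusters were called lower. Of the 18, 3 were called lower (COL5A2, COL6A1 and COL1A1), as were 2 of 8 yolk sac and endoderm clusters (GATA6 and SOX17). These 5 were not called in EC on feeders, with log2 differences from ES lines of -0.94 (COL5A2), -0.20 (COL6A1), -1.04 (COL1A1), -0.49 (GATA6) and -0.37 (SOX17). None of 10 trophoblast or 6 neural marker clusters was called in either comparison. No pluripotency marker cluster was called either. The array codes in the labels fall into an earlier set of 4 arrays (H14, Shef5 and the feeder cultures of NTERA2 and 2102Ep) and a later set of 10, which is not stated to be a batch. In these bulk samples, fewer cells of a type and less RNA per cell cannot be told apart.

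The largest difference between EC and ES lines at these loci was at the cluster annotated to PEG3 and ZIM2 together (3872053, chromosome 19). PEG3 encodes a paternally expressed zinc finger protein, and ZIM2 shares its first exons. Since the cluster names 2 members, it was kept out of the counts of members, and it is described here after its values were seen. On feeders its log2 level was 7.67 in NTERA2, 8.24 in 2102Ep and 7.48 in 833KE. On plastic it was 6.73 in NCCIT, 8.90 in 2102Ep, 8.64 in 833KE, 8.74 in TERA1 and 8.65 in NTERA2. ES lines had 5.80 in H14, 4.61 in Shef5, 4.69 in Shef 6, 4.50 in Shef3, 4.68 in H9 and 4.82 in Shef7. Every EC array was above every ES array, with NCCIT the lowest of the EC arrays and H14 the highest of the ES arrays.

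EC lines on plastic averaged 8.33 ± 0.90 (SD, n = 5) and ES lines 4.85 ± 0.48 (SD, n = 6), a log2 difference of 3.48 (SE 0.38), or 11.2-fold. In limma the adjusted p over all clusters was 0.0009309. EC lines on feeders averaged 7.80 ± 0.39 (SD, n = 3), a log2 difference of 2.94 (SE 0.29, adjusted p = 0.00182) from the same ES lines, or 7.70-fold. With only the arrays of the later codes, the log2 difference on plastic was 3.66, still called (adjusted p = 0.005059). On feeders those codes leave 1 EC array, 833KE, which was 2.81 above the mean of 4 ES lines and has no replicate. Of all clusters, 4.6% were called in EC on plastic against ES, 3.26% higher and 1.34% lower. In EC on feeders against ES 2.29% were called, 1.56% higher and 0.731% lower. The same 3 lines were lower on feeders than on plastic at this cluster, by 0.99 in NTERA2, 0.67 in 2102Ep and 1.16 in 833KE. That log2 difference of -0.94 (SE 0.18) was not called (adjusted p = 0.237).

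The probesets under this cluster followed it. Of 20 probesets annotated PEG3/ZIM2, 19 were higher in EC on plastic than in ES lines at an adjusted p under 0.05, and 18 were higher in EC on feeders. None was lower in either. Of all probesets, 2.81% were called in the plastic comparison (2.07% higher, 0.745% lower) and 0.953% in the feeder comparison (0.61% higher, 0.344% lower). The median log2 difference over the 20 was 4.29 on plastic and 3.94 on feeders, against 0.03 and 0.06 over all probesets. The widest gap was at probeset 3872074, where EC on plastic averaged 8.96 ± 0.95 and ES lines 2.83 ± 1.36 (SD, n = 5 and 6), a log2 difference of 6.13. NCCIT was the lowest of the 8 EC arrays in all 20 probesets, and H14 was the highest ES line in 17 of 20. Another 6 probesets, annotated with ZIM2 first, lay between 1.16 and 5.88 in every array, and none was called in either comparison. The calls at this locus were thus all in probesets with PEG3 named first. The markers named above as lower (COL5A2, COL6A1, COL1A1, GATA6 and SOX17) were lower in EC than in ES lines on feeders and on plastic. Not every marker of those lists was: the fibroblast marker THY1 was higher by a log2 difference of 1.26 on feeders and 0.91 on plastic. The part of such markers in the PEG3/ZIM2 difference was not tested.

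**Figure D1:**
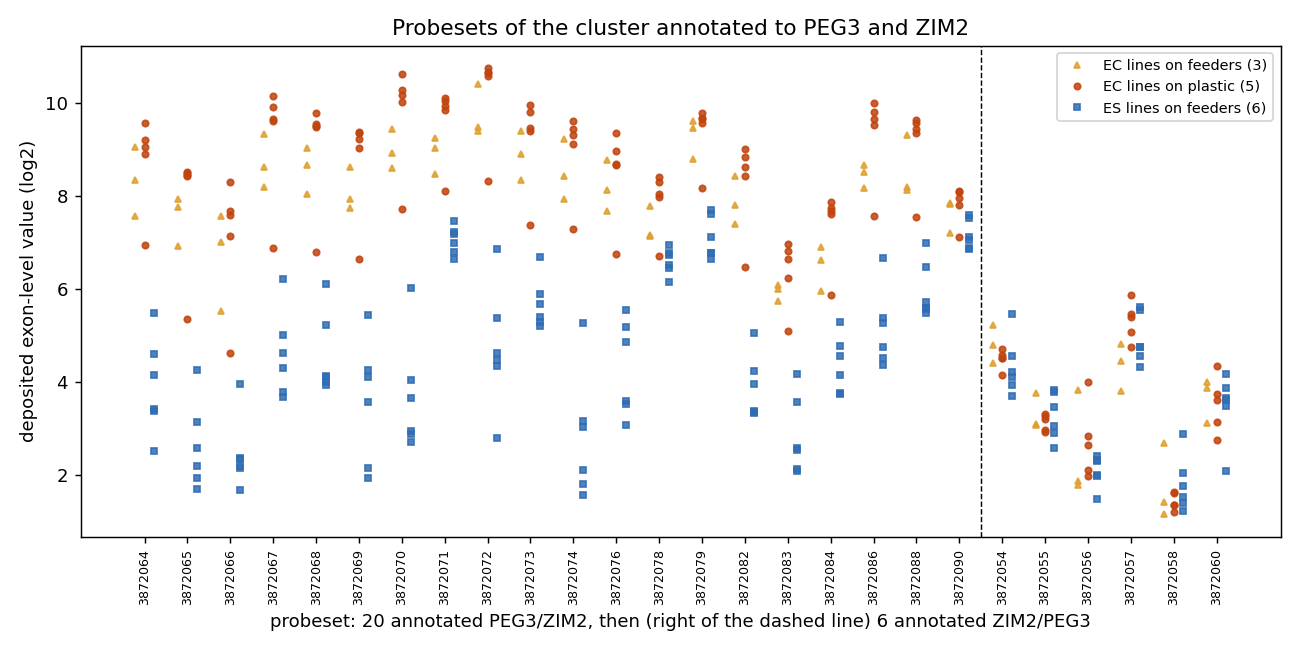
Exon-level log2 values (vertical axis) of the 20 probesets annotated PEG3/ZIM2 and the 6 annotated ZIM2/PEG3 (horizontal axis), with 1 point per array. Left of the dashed line the EC means lie above the ES means in all 20, with NCCIT lowest among them in all 20. In the 6 on the right the groups share one range between 1.16 and 5.88.

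Among the 21 clusters that name 1 member alone, none was called in EC on plastic against ES, set beside the background of 4.6%. At an unadjusted p under 0.05 there were 6 of 21, 4 of them higher and 2 lower, and 19.2% of all clusters passed the same threshold. In EC on feeders against ES, 1 of 21 was called, against the background of 2.29%, and 5 of 21 passed an unadjusted 0.05, as 17.6% of all clusters did. The median log2 difference over the 21 was -0.02 in the plastic comparison and 0.07 in the feeder comparison, against 0.00 and 0.04 over all clusters. Split by allele, the 12 paternally expressed members had a median of 0.15 in the plastic and 0.17 in the feeder comparison. The 4 maternally expressed members had -0.02 and 0.14, and the 5 members imprinted by tissue or transcript -0.36 and 0.06.

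The called member was SGCE on chromosome 7, which encodes epsilon-sarcoglycan and is paternally expressed beside PEG10. On feeders its log2 level was 7.80 in NTERA2, 7.36 in 2102Ep and 7.63 in 833KE. The plastic cultures had 7.08 in NCCIT, 7.46 in 2102Ep, 6.71 in 833KE, 7.83 in TERA1 and 7.69 in NTERA2. In ES lines it was 6.80 in H14, 6.72 in Shef5, 6.64 in Shef 6, 6.60 in Shef3, 7.16 in H9 and 6.91 in Shef7. The 3 feeder-grown EC arrays were all above the highest ES line, while 833KE and NCCIT on plastic were within the ES range. EC on feeders averaged 7.60 ± 0.22 (n = 3) and ES lines 6.80 ± 0.21 (n = 6, SD), a log2 difference of 0.79 (SE 0.17, limma adjusted p = 0.04257), or 1.73-fold. With the array code as a block the log2 difference was 0.82 with an adjusted p of 0.0572. The call was kept in 1 of 9 fits with a line left out (limma adjusted p from 0.03499 to 0.1072). The later codes leave only 833KE among the feeder-grown EC arrays, 0.81 above 4 ES lines. EC on plastic differed from ES lines by 0.55 (SE 0.20, adjusted p = 0.153). Over the 18 SGCE probesets the median log2 difference was 0.76 on feeders, with none called, and 0.61 on plastic, with 1 called. The probeset called was 3061806, at 3.91 ± 0.57 in EC on plastic and 2.65 ± 0.38 in ES lines (SD, n = 5 and 6), with overlapping groups (log2 difference 1.27, adjusted p = 0.03371), and it kept its call in 3 of 11 fits with a line left out. It is a dim probeset: both means lay below 4.62, the lowest 25th percentile of any array at exon level. Against the rest of the gene, probeset 3061853 was lower by a log2 difference of -1.28 in EC on plastic (limma's diffSplice, adjusted p = 0.03943). Of all probesets so tested in that comparison, 0.407% were called. In EC on feeders against ES the value was -1.01 and not called (diffSplice, adjusted p = 0.5716).

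NAP1L5 had the smallest p of the uncalled members in the plastic comparison. It is an intronless, paternally expressed gene on chromosome 4 that encodes a protein related to nucleosome assembly factors. On feeders its log2 level was 5.77 in NTERA2, 6.20 in 2102Ep and 3.80 in 833KE. On plastic it was 6.77 in NCCIT, 6.44 in 2102Ep, 6.06 in 833KE, 3.44 in TERA1 and 6.02 in NTERA2. In ES lines it was 3.44 in H14, 3.92 in Shef5, 3.72 in Shef 6, 3.95 in Shef3, 5.48 in H9 and 3.93 in Shef7. At the cluster the values fell into a high and a low range: TERA1 and feeder-grown 833KE lay with 5 of the ES lines, and H9 lay toward the other EC arrays. EC on plastic averaged 5.75 ± 1.33 (n = 5) and ES lines 4.07 ± 0.72 (n = 6, SD), a log2 difference of 1.67 (SE 0.55, adjusted p = 0.1111). Without TERA1 the difference was 2.25, with an adjusted p of 0.00904. That was the only call in 11 fits with a line left out. Over these fits the log2 difference ran from 1.42 to 2.25 and the limma adjusted p up to 0.2226. EC on feeders differed from ES lines by 1.19 (SE 0.54, adjusted p = 0.2941). In 833KE the level on feeders was 2.26 below that on plastic, against 0.25 below in NTERA2 and 0.24 below in 2102Ep. That wide shift was in 1 pair of arrays, and the group difference was not called (-0.92, SE 0.44, adjusted p = 0.4046). The median of the 9 NAP1L5 probesets was graded rather than split. It was 5.48 in TERA1, 4.50 in feeder-grown 833KE and 3.69 to 6.11 in ES lines. By probeset, the log2 difference of EC on plastic from ES lines ran from -0.65 to 2.86, with none called.

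The start of NAP1L5 is shown because TGCCGC, the hexamer that ZFP57 binds when its CpG is methylated, occurs in it. The sequence is RefSeq's on GRCh38.p14, 250 bases before and 50 after the start, with TGCCGC or its reverse complement GCGGCA in capitals.
NAP1L5 start, chr4:88697780-88698079, minus strand: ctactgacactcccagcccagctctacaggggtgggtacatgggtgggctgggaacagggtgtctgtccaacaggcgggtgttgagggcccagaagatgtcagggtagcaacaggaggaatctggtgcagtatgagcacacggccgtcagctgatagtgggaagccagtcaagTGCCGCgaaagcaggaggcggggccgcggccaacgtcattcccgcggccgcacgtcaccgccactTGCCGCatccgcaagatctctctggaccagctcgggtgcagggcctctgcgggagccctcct
The hexamer was found 2 times in this window, on either strand. It was present in 20 of the 45 windows counted for 17 members (44.4%) and in 5878 of 35116 windows of all genes (16.7%). The 45 are not every window of the members: those of TRAPPC9 and KCNK9 were left out of the count. Several windows of 1 gene overlap and share a match, and the members' windows held a median of 18 CpG dinucleotides against 14 in all windows, so the shares describe these windows only. Methylation was not measured here.

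**Figure D2:**
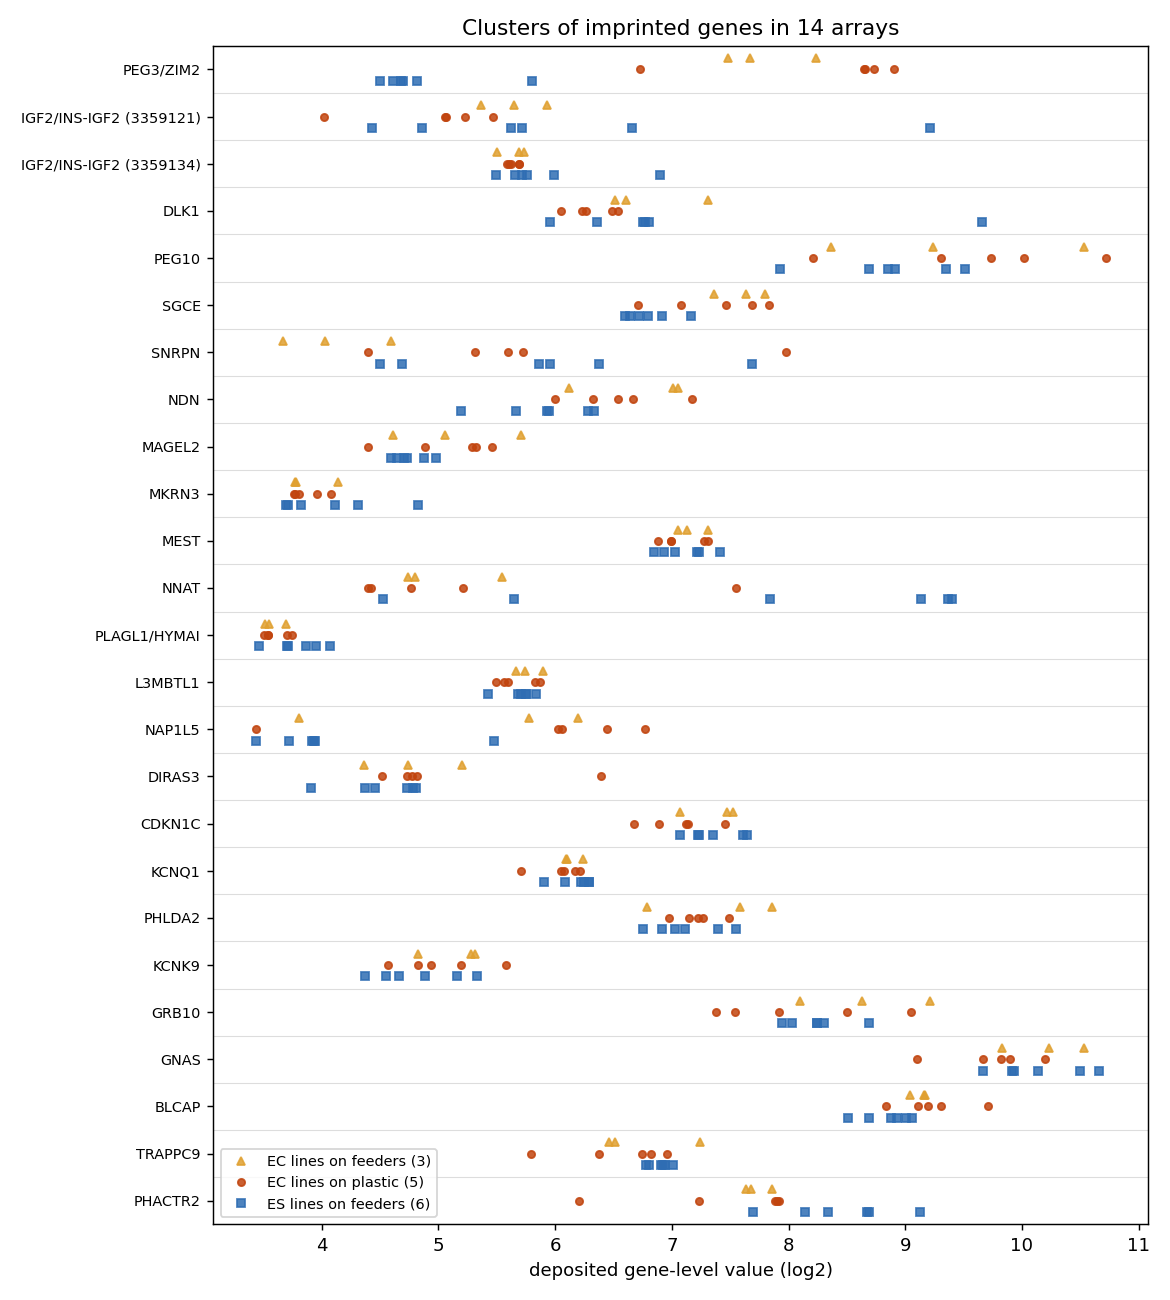
Gene-level log2 values (horizontal axis) of 25 clusters of imprinted genes (rows), with 1 point per array and the 3 groups drawn one above the other. PEG3/ZIM2 is the row in which all 8 EC arrays lie right of all 6 ES arrays, and NNAT, DLK1 and NAP1L5 show single lines far from the rest of their group.

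Several members ranged widely between lines of 1 group. Over the 21 clusters the median SD between lines was 0.42 in EC on feeders, 0.43 in EC on plastic and 0.35 in ES lines, against 0.31, 0.34 and 0.29 over all clusters. The median range over the 14 arrays was 1.45 for the members and 1.34 for all clusters. For the 338 member probesets the median SD was 0.445 in EC on feeders, 0.547 in EC on plastic and 0.457 in ES lines. Over all probesets it was 0.465, 0.485 and 0.464, so at exon level the members were higher only in EC on plastic. The median range of the member probesets was 1.91, against 1.90 for all probesets. Of the 21, 7 ranged over more than 2 on the log2 scale, and 21.4% of all clusters did. NNAT, SNRPN, DLK1, NAP1L5, PHACTR2 and PEG10 had the widest ranges.

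NNAT, which lies in an intron of BLCAP on chromosome 20 and encodes the membrane protein neuronatin, had the widest range of a cluster that names 1 member, 5.00. On feeders its log2 level was 4.80 in NTERA2, 4.74 in 2102Ep and 5.54 in 833KE. The plastic cultures had 7.55 in NCCIT, 4.76 in 2102Ep, 5.21 in 833KE, 4.43 in TERA1 and 4.40 in NTERA2. ES lines had 5.65 in H14, 7.84 in Shef5, 9.14 in Shef 6, 9.40 in Shef3, 4.53 in H9 and 9.36 in Shef7. The ES lines were thus split: the 4 Shef lines were above every EC array, and H14 and H9 were among them. EC on plastic differed from ES lines by -2.38 (SE 0.95, adjusted p = 0.1892) and EC on feeders by -2.62 (SE 1.05, adjusted p = 0.2306). Only 0.513% of all clusters had a range as wide. The mean of 6 neural marker clusters was 6.41 in Shef7 and 5.67 to 5.89 in the other 3 Shef lines, against 5.66 in H14 and 5.71 in H9. Their part in the NNAT values was not tested. BLCAP, the host gene, averaged 9.13 ± 0.07 in EC on feeders, 9.23 ± 0.32 in EC on plastic and 8.84 ± 0.21 in ES lines.

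DLK1 and IGF2 each stood out in 1 ES line. DLK1, a paternally expressed relative of Notch ligands on chromosome 14, had a log2 level of 6.51 in NTERA2, 7.31 in 2102Ep and 6.61 in 833KE on feeders. On plastic it was 6.05 in NCCIT, 6.49 in 2102Ep, 6.54 in 833KE, 6.27 in TERA1 and 6.23 in NTERA2. ES lines had 6.77 in H14, 6.80 in Shef5, 6.36 in Shef 6, 6.76 in Shef3, 5.96 in H9 and 9.66 in Shef7. Shef7 was 2.36 above the next array, a gap that 0.118% of all clusters matched at their top, and it was the highest array in 8 of 10 DLK1 probesets. The neural markers were also highest among ES lines in Shef7, as given above, and their part in the DLK1 level was not tested.

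IGF2, a fetal growth factor on chromosome 11, was read from 5 probesets of its own and from clusters shared with INS-IGF2. The median of its 5 probesets was 6.81 in Shef5 and 4.98 to 5.42 in the other ES lines. It averaged 4.62 ± 0.24 in EC on feeders (n = 3), 4.78 ± 0.52 in EC on plastic (n = 5) and 5.47 ± 0.68 in ES lines (n = 6, SD). The shared cluster 3359121 was at 9.22 in Shef5, 2.55 above the next array, H14 at 6.66. Shef5 was the highest array in 11 of the 14 probesets annotated to IGF2 alone or with INS-IGF2 or INS. Shef5 also had the highest mean of the fibroblast markers (6.74) and of the yolk sac and endoderm markers (6.74, against 5.57 to 6.11 in the other ES lines). Their part in the IGF2 values was not tested. No IGF2 probeset was called in either comparison with ES lines.

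SNRPN, which encodes a spliceosomal protein and lies with NDN, MAGEL2 and MKRN3 in the Prader-Willi region of chromosome 15, gave different pictures by feature. On feeders its own cluster was at 4.03 in NTERA2, 4.60 in 2102Ep and 3.67 in 833KE. The plastic cultures had 7.97 in NCCIT, 5.31 in 2102Ep, 5.60 in 833KE, 4.40 in TERA1 and 5.73 in NTERA2. In ES lines it was at 6.38 in H14, 4.50 in Shef5, 4.69 in Shef 6, 5.96 in Shef3, 7.69 in H9 and 5.86 in Shef7. The 3 lines were lower on feeders than on plastic, with differences of -1.70 in NTERA2, -0.71 in 2102Ep and -1.93 in 833KE (group difference -1.45, SE 0.28, adjusted p = 0.237). EC on feeders differed from ES lines by -1.75 (SE 0.61, adjusted p = 0.1687) and EC on plastic by -0.05 (SE 0.66, adjusted p = 0.9818). That cluster (3584728) had a correlation of 0.01 over the 14 arrays with the median of the 6 probesets named SNRPN alone. Among these, 3584730 and 3584731 are nearest to it in number. Their log2 differences of feeders from plastic were -1.51 and -1.29, not called, and over all 6 the differences ran from -1.51 to 0.08. The median of the 6 is therefore a poor guide to that cluster. Most probesets of the gene are annotated to SNRPN and SNURF together, and none of those 17 was called in either comparison.

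Probeset 3584495, 1 of these 17 and singled out after its values were seen, split the lines in 2. It lay between 9.50 and 11.25 in 6 arrays (NCCIT, both cultures of 833KE, H14, Shef5 and H9) and between 6.89 and 8.03 in the other 8. The 833KE line fell on the same side in both cultures, at 10.46 on feeders and 9.50 on plastic. Another 13 of the 17 had a mean above 8, and their median range over the 14 arrays was 1.84.

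No gene of the region on chromosome 15 had a cluster or a probeset called by limma. NDN, which encodes the growth suppressor necdin, averaged 6.72 ± 0.53 in EC on feeders, 6.54 ± 0.44 in EC on plastic and 5.89 ± 0.42 in ES lines (SD, n = 3, 5 and 6). Its log2 difference from ES lines was 0.83 on feeders (SE 0.29, adjusted p = 0.1693) and 0.65 on plastic (SE 0.24, adjusted p = 0.1602). The cluster had a correlation of -0.37 over the 14 arrays with the median of its 5 probesets, whose median log2 difference from ES lines was 0.17 on feeders and 0.78 on plastic. Against the rest of the gene, probeset 3613730 was lower in EC on plastic, by a log2 difference of -1.83 (diffSplice, adjusted p = 0.01941), while on feeders the value was -0.40 and not called. In the 3 lines grown both ways this probeset averaged 5.49 ± 0.29 on feeders and 3.73 ± 0.33 on plastic, a log2 difference of 1.75 that was not called (adjusted p = 0.3539). MAGEL2, a ubiquitin ligase cofactor, averaged 5.12 ± 0.55 in EC on feeders, 5.07 ± 0.43 in EC on plastic and 4.76 ± 0.15 in ES lines. MKRN3, a RING finger gene, averaged 3.90 ± 0.21 in EC on feeders, 3.87 ± 0.14 in EC on plastic and 4.08 ± 0.44 in ES lines.

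PHACTR2 and PEG10 completed the widest ranges. PHACTR2 on chromosome 6, a phosphatase and actin regulator, was at 7.68 in NTERA2, 7.86 in 2102Ep and 7.63 in 833KE on feeders. On plastic it was at 6.21 in NCCIT, 7.92 in 2102Ep, 7.90 in 833KE, 7.23 in TERA1 and 7.89 in NTERA2. ES lines had 8.67 in H14, 8.14 in Shef5, 8.69 in Shef 6, 8.34 in Shef3, 9.13 in H9 and 7.70 in Shef7. Shef7 was the ES line inside the EC range, and NCCIT was the lowest array, also in 13 of 18 probesets. The log2 difference from ES lines was -1.01 on plastic (SE 0.34, adjusted p = 0.116) and -0.72 on feeders (SE 0.27, adjusted p = 0.2121).

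PEG10 on chromosome 7, derived from a retrotransposon, was at 10.53 in NTERA2, 9.23 in 2102Ep and 8.36 in 833KE on feeders, and at 9.31 in NCCIT, 10.01 in 2102Ep, 8.21 in 833KE, 9.74 in TERA1 and 10.72 in NTERA2 on plastic. ES lines had 8.85 in H14, 7.93 in Shef5, 8.91 in Shef 6, 8.69 in Shef3, 9.35 in H9 and 9.51 in Shef7. NTERA2 was the highest line and 833KE the lowest EC line in both cultures, so the order of these lines was kept between growth conditions. None of the 21 PEG10 probesets was called in either comparison with ES lines.

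**Figure D3:**
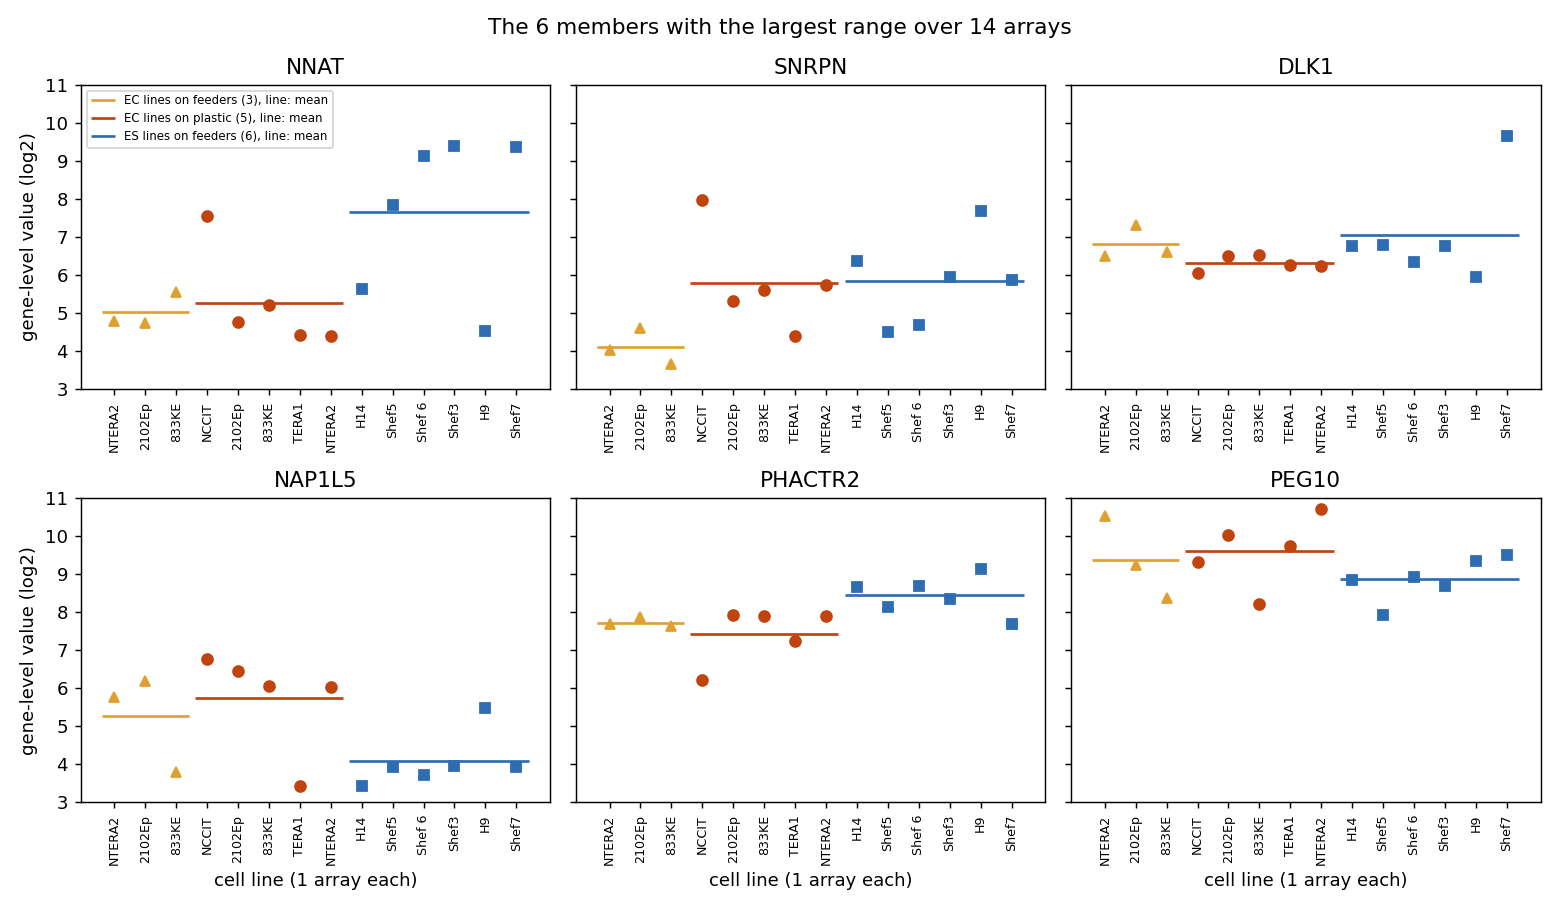
Gene-level log2 values (vertical axis) of the 6 members with the widest range, by line (horizontal axis, 1 array each), with horizontal bars for group means. NNAT splits the ES lines, DLK1 is high in Shef7 at 9.66, and NAP1L5 is low in TERA1 and in feeder-grown 833KE.

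MEST, a paternally expressed hydrolase gene on chromosome 7, was lower in 1 EC line across most of its probesets. The median of its 18 probesets was 7.61 in NTERA2 on plastic, while the lowest of the other 4 EC lines on plastic was 10.18. In NTERA2 on plastic, 14 of the 18 lay below all 12 arrays of the other lines, and 13 lay at least 2 below the median of those arrays, as 0.4% of all probesets did. The same line on feeders was below all 12 in 11 of 18. The median log2 distance from the other arrays was -0.79 on feeders and -2.90 on plastic, against 0.07 on each over all probesets. On feeders 13 of the 18 were at least 1 higher than on plastic in this line, as 8.8% of all probesets were. The MEST cluster (3024025) did not show this: it was at 6.88 in NTERA2 on plastic, with a range of 0.57 over the 14 arrays against 3.01 for the median of its probesets. EC on plastic averaged 7.09 ± 0.19 at the cluster and ES lines 7.11 ± 0.21 (SD, n = 5 and 6), and no MEST probeset was called in either comparison with ES lines. The pattern was chosen after the values were seen and rests on 2 arrays of 1 line.

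**Figure D4:**
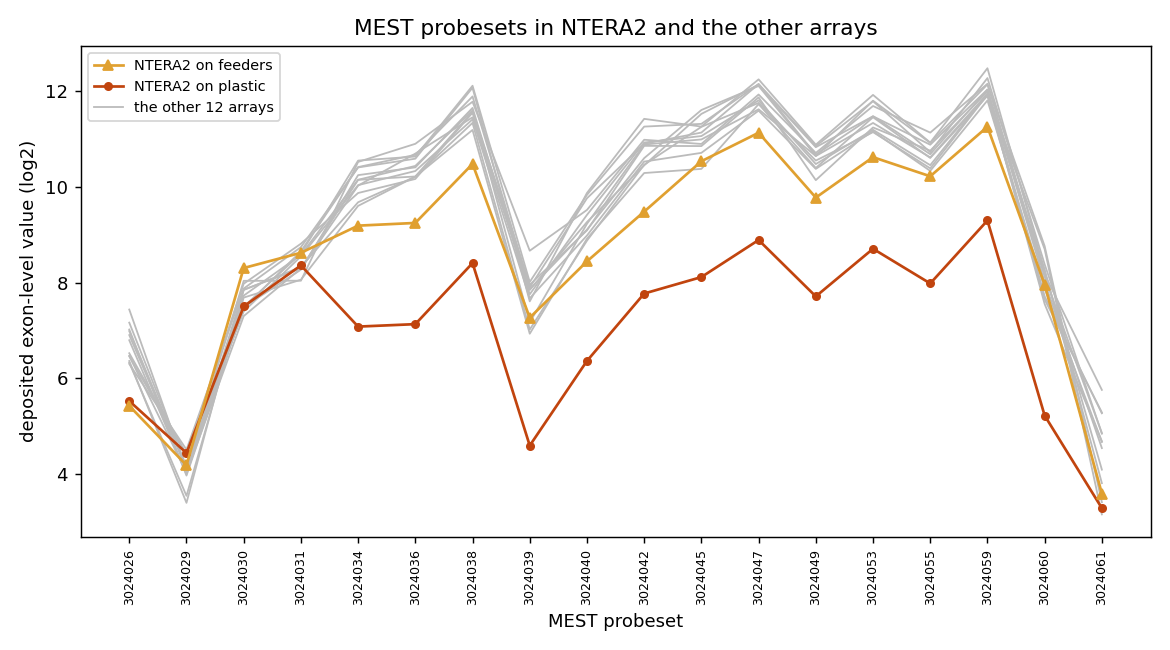
Exon-level log2 values (vertical axis) of the 18 MEST probesets (horizontal axis) in NTERA2 on feeders (triangles), NTERA2 on plastic (circles) and the other 12 arrays (grey lines). NTERA2 on feeders runs below all other lines in 11 probesets and NTERA2 on plastic in 14, with feeders at least 1 above plastic in 13.

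MEST has more than 1 start, and 2 of its RefSeq windows (GRCh38.p14) are shown so that the starts can be told apart, the upstream one first, with TGCCGC or GCGGCA in capitals as before.
MEST start, chr7:130485925-130486224, plus strand: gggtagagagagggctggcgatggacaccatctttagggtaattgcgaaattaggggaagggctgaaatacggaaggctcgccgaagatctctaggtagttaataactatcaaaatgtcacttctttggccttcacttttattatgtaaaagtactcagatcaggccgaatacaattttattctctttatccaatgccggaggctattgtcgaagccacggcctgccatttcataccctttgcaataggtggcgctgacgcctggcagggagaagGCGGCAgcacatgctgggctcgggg
MEST start, chr7:130491835-130492134, plus strand: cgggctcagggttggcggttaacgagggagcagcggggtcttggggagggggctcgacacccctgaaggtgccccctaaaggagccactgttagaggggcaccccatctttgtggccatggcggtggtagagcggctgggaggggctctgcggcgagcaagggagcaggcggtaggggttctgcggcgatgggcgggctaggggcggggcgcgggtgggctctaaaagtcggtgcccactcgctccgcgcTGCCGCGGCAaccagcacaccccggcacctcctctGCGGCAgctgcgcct
The first window held 13 CpG dinucleotides and 1 match, and the second held 25 and 3. Which start the low probesets belong to was not assigned here.

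GNAS on chromosome 20 encodes the stimulatory G protein alpha subunit. Its separate first exons splice to shared downstream exons, and the upstream ones are transcribed from 1 parental copy while the main one is biallelic in most tissues. The GNAS cluster averaged 10.20 ± 0.35 in EC on feeders, 9.74 ± 0.40 in EC on plastic and 10.13 ± 0.38 in ES lines (SD, n = 3, 5 and 6). It was not called in either comparison with ES lines. The windows of 3 RefSeq starts (GRCh38.p14), the most upstream, the next and the most downstream, show how the starts differ, with TGCCGC in capitals.
GNAS start, chr20:58839498-58839797, plus strand: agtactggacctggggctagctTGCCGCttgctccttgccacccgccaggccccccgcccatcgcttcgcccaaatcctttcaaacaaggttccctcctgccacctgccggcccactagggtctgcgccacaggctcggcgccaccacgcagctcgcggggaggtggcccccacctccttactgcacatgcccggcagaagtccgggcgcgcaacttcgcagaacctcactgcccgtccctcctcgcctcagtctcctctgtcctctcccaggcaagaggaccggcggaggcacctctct
GNAS start, chr20:58841370-58841669, plus strand: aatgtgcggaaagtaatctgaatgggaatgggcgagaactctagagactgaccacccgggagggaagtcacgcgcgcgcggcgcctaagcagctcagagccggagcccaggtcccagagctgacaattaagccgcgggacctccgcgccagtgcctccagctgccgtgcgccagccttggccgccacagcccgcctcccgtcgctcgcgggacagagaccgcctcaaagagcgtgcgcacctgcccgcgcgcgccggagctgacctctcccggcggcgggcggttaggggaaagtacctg
GNAS start, chr20:58888930-58889229, plus strand: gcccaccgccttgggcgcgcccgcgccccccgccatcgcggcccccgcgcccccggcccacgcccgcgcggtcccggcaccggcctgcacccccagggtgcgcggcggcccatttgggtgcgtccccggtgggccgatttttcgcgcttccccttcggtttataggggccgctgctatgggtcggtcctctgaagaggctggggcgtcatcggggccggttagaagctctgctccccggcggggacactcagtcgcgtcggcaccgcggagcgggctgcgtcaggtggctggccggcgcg
The most upstream window held 21 CpG dinucleotides and 1 match, the next held 34 and none, and the most downstream held 43 and none.

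Of 29 GNAS probesets, 20 had a mean over the 14 arrays above 8, from 8.38 to 12.73, and these lay close together in their differences. Their log2 differences from ES lines ran from -0.64 to 0.07 in EC on plastic, 19 of 20 below 0. On feeders they ran from -0.17 to 0.69, 16 of 20 above 0, and none of the 20 was called in either. NCCIT was the lowest of all 14 arrays in 21 of the 29 probesets. Without NCCIT the median difference of the 20 on plastic was -0.24, against -0.40 with it, and that of the cluster was also -0.24 against -0.40. The other 9 had means from 4.04 to 7.99, and 3 neighbours in probeset number, 3891165, 3891166 and 3891167, stood apart.

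Probeset 3891165 was at 6.32 in NTERA2, 7.41 in 2102Ep and 5.20 in 833KE on feeders. The plastic cultures had 4.21 in NCCIT, 7.02 in 2102Ep, 5.99 in 833KE, 6.63 in TERA1 and 6.06 in NTERA2. ES lines had 8.58 in H14, 8.29 in Shef5, 8.15 in Shef 6, 8.48 in Shef3, 7.64 in H9 and 8.05 in Shef7, so every EC array was below every ES array. EC on plastic averaged 5.98 ± 1.08 and ES lines 8.20 ± 0.34 (SD, n = 5 and 6), a log2 difference of -2.21 (SE 0.41, limma adjusted p = 0.01346). EC on feeders averaged 6.31 ± 1.11 (SD, n = 3), a log2 difference of -1.89 (SE 0.42) that was not called (adjusted p = 0.05856). With later codes only, the difference on plastic was -2.10 with an adjusted p of 0.07314.

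Probeset 3891166 averaged 5.80 ± 0.53 in EC on plastic and 6.96 ± 0.33 in ES lines, without overlap (log2 difference -1.16, SE 0.27, adjusted p = 0.03786), a call kept in 3 of 11 fits with a line left out. EC on feeders averaged 5.86 ± 0.65, a difference of -1.10 (SE 0.33, adjusted p = 0.1507). Probeset 3891167 averaged 5.60 ± 0.61 in EC on plastic and 6.89 ± 0.78 in ES lines (difference -1.29, adjusted p = 0.09396), and 4.85 ± 2.98 in EC on feeders, where NTERA2 was at 1.42. The remaining 6 of lower level were not called, with log2 differences from ES lines of -0.60 to 0.43 on plastic and -0.35 to 0.37 on feeders. GNAS 3891165 and 3891166 and SGCE 3061806 were the 3 of 338 called in EC on plastic against ES, a share under the background of 2.81%. In EC on feeders against ES none of 338 was called by limma, beside a background of 0.953%, and 43 passed an unadjusted 0.05, as 13.6% of all probesets did.

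Usage of each GNAS probeset was tested as its difference from the rest of the gene, with limma's diffSplice, which pools the spread over a gene's probesets as though they were independent. In EC on plastic against ES, 1 of 29 was called, 3891165 at -1.84 (adjusted p = 9.646e-05), beside a background of 0.407%. In EC on feeders against ES, 2 of 29 were called, 3891167 at -2.05 (adjusted p = 0.003921) and 3891165 at -1.89 (adjusted p = 0.01389), beside 0.239%. Without feeder-grown NTERA2 the feeder comparison called 1 of the 29. Which first exon these probesets read was not assigned here, since the annotation used gives symbols and no positions.

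**Figure D5:**
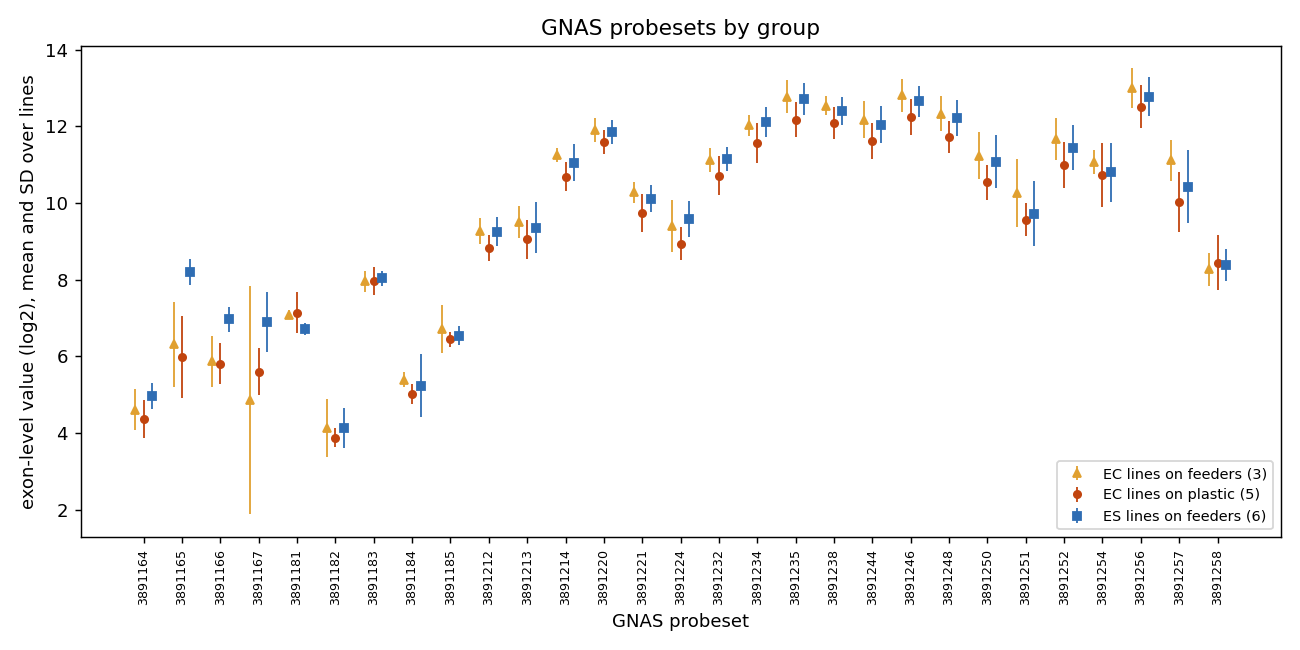
Exon-level log2 values (vertical axis, points for means and bars for SD over lines) of the 29 GNAS probesets (horizontal axis) in EC on feeders, EC on plastic and ES lines. At 3891165, 3891166 and 3891167 both EC means lie below the ES mean, while the 20 probesets above 8 lie together.

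The remaining members showed small or isolated differences. DIRAS3 on chromosome 1, a paternally expressed small GTPase gene, averaged 4.77 ± 0.42 in EC on feeders, 5.04 ± 0.76 in EC on plastic and 4.51 ± 0.35 in ES lines (SD, n = 3, 5 and 6), with NCCIT highest at 6.39. L3MBTL1, a chromatin reader, averaged 5.77 ± 0.12 in EC on feeders, 5.67 ± 0.17 in EC on plastic and 5.69 ± 0.14 in ES lines. PLAGL1, a zinc finger growth regulator, had a median over its 19 probesets of 3.89 ± 0.07 in EC on feeders, 3.94 ± 0.13 in EC on plastic and 4.09 ± 0.30 in ES lines. Of these 3 genes no probeset was called in either comparison with ES lines.

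None of the maternally expressed members was called. CDKN1C, a cyclin-dependent kinase inhibitor on chromosome 11, averaged 7.35 ± 0.25 in EC on feeders, 7.06 ± 0.29 in EC on plastic and 7.35 ± 0.23 in ES lines. Its neighbour KCNQ1, a potassium channel gene, averaged 6.14 ± 0.08 in EC on feeders, 6.05 ± 0.20 in EC on plastic and 6.17 ± 0.15 in ES lines. PHLDA2, which restrains placental growth in the mouse, averaged 7.41 ± 0.56 in EC on feeders, 7.22 ± 0.19 in EC on plastic and 7.12 ± 0.30 in ES lines. SLC22A18, an organic cation transporter gene, had a median over 16 probesets of 6.54 ± 0.22 in EC on feeders, 6.26 ± 0.22 in EC on plastic and 6.34 ± 0.26 in ES lines. KCNK9, another potassium channel gene, averaged 5.14 ± 0.27 in EC on feeders, 5.02 ± 0.38 in EC on plastic and 4.83 ± 0.37 in ES lines. None of these 5 had a probeset called against ES lines. PHLDA2 probeset 3359465 was at 8.13 in EC on feeders and 6.62 in ES lines (adjusted p = 0.2073), and CDKN1C 3359436 at 8.31 in EC on feeders and 7.36 in ES lines (adjusted p = 0.2384), both picked out after their values were seen.

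GRB10, an adaptor that dampens insulin receptor signalling, averaged 8.65 ± 0.56 in EC on feeders, 8.08 ± 0.69 in EC on plastic and 8.24 ± 0.26 in ES lines. TRAPPC9, a gene of vesicle transport, averaged 6.74 ± 0.44 in EC on feeders, 6.54 ± 0.47 in EC on plastic and 6.89 ± 0.09 in ES lines.

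Feeders were compared with plastic in the 3 EC lines grown both ways, with the line as a block. No member was called, nor was any of the 22011 clusters or 287329 probesets, so the background was 0%. At an unadjusted p under 0.05 limma gave 3276 clusters, 14.9% of all, and among them 2 of the 21 members, SNRPN (lower, above) and GRB10. GRB10 was at 9.22 in NTERA2, 8.63 in 2102Ep and 8.10 in 833KE on feeders, against 8.50, 7.54 and 7.38 in the same lines on plastic. It was higher on feeders in each line, with a log2 difference of 0.84 (SE 0.17, adjusted p = 0.2395). DLK1 had a difference of 0.39 (SE 0.21, adjusted p = 0.443). Of the 21 members, 3 were higher and 3 lower on feeders in every line, while 20.6% of all clusters were higher and 18.1% lower in every line.

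Other imprinted genes and the genes that keep imprints were counted in the same fits. Of 33 clusters of other imprinted genes, 1 rose and 3 fell in EC on plastic against ES, where 3.26% of all clusters rose and 1.34% fell. In EC on feeders 1 of the 33 rose, where 1.56% of all clusters did. ZNF597, a maternally expressed zinc finger gene, was the one that rose in both, at 7.31 in EC on feeders and 8.01 in EC on plastic, against 6.29 in ES lines (differences 1.01, adjusted p = 0.0318, and 1.72, adjusted p = 0.001349). LRRTM1, ZNF331 and NTM fell in EC on plastic, by 0.74, 1.19 and 0.81 on the log2 scale. Of 17 clusters of imprint maintenance and DNA methylation genes, none was called in EC on plastic and 2 rose in EC on feeders, where 1.56% of all clusters rose. These were CTCFL, the germline paralogue of CTCF (6.90 in EC on feeders and 4.62 in ES lines, adjusted p = 0.008286), and NLRP7, a maternal gene mutated in recurrent molar pregnancy (7.59 in EC on feeders and 4.31 in ES lines, adjusted p = 0.0196). On plastic NLRP7 was at 7.97 ± 2.85 and CTCFL at 5.78 ± 1.11 (SD, n = 5), log2 differences from ES lines of 3.67 (adjusted p = 0.06937) and 1.16 (adjusted p = 0.1761). TRIM28 differed from ES lines by 0.02 in EC on feeders and -0.61 in EC on plastic, neither called. The median log2 difference of these 17 was 0.13 on feeders and 0.01 on plastic, beside 0.04 and 0.00 over all clusters.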

How the data were processed

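Each of 14 cultures was hybridised to 1 exon array. The deposited values are log2 values, 1 per transcript cluster or probeset, read as log2 from their range. The submitters' processing notes name RMA, Affymetrix Expression Console and limma; versions, build and annotation release are not given in the sources used here. Array medians ran from 6.19 to 6.39 at gene level. With no detection values used, signal over background is unknown, and precision is limited by how many arrays there are. Symbols come from the platform annotation, with L3MBTL read as L3MBTL1.

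The fits covered all features with limma 3.58.1 under R 4.3.3 (eBayes and diffSplice, two-sided), and features were called at a Benjamini-Hochberg adjusted p under 0.05. Scripts were tested on simulated data. Feeders against plastic had the line as a block. Deviations from the condition mean correlated at 0.507 (NTERA2), 0.405 (2102Ep) and 0.342 (833KE) between cultures of a line, and below 0 between lines. Deviations from a mean of so few lines sum to 0, so the values below 0 follow from the others and are no separate check. Figures were drawn with matplotlib 3.10.9. The members and lists were chosen with earlier results of these data known. All members are named, with tests for those called or, where fewer than 4 were, the smallest p up to 4; every array is given for members called or among the 6 widest ranges. NNAT tests, further 2-symbol features and single probesets were added after values were seen. Other normalisations, filters, blocks and left-out lines were tried.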

Additional observations from a re-analysis of the deposited data

Results flagged for a closer look

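In 58 checks of a line against its group (29 features, in EC on plastic and in ES lines), 12 stood apart from the nearest of the others by more than Dixon's critical value allows, where chance gives about 1 in 20. Groups of 3 were not checked. Over all clusters the same check set apart a line in 6.13% of groups, and over the 21 clusters that name 1 member in 6 of 42 (14.3%). The 12 include shared clusters, overlapping IGF2 features and the MEST probeset median, the last chosen after its values were seen. Among EC lines on plastic, NCCIT was far from the rest at PEG3/ZIM2 (6.73, next 8.64), NNAT (7.55, next 5.21), DIRAS3 (6.39, next 4.81) and the IGF2/INS-IGF2 cluster 3359121 (4.02, next 5.06). TERA1 was far from the rest at NAP1L5 (3.44, next 6.02), and NTERA2 at the median of the MEST probesets (7.61, next 10.18). Among ES lines, Shef5 stood apart at the IGF2/INS-IGF2 cluster 3359134 (6.90, next 5.99) and at the median of 5 IGF2 probesets (6.81, next 5.42). Shef7 stood apart at DLK1 (9.66, next 6.80), H14 at PEG3/ZIM2 (5.80, next 4.82), H9 at NAP1L5 (5.48, next 3.95) and Shef 6 at L3MBTL1 (5.42, next 5.69).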

How the results depend on the processing

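The PEG3/ZIM2 cluster kept its call in both EC-ES comparisons under every alternative run, all added after seeing the data, and with single lines left out its difference was 3.34 to 3.88 on plastic and 2.72 to 3.13 on feeders; its probesets called were 18 to 19 and 13 to 18 of 20. No result reversed. Member clusters called in EC on plastic against ES were 1 with only the 3 EC lines also on feeders and 0 to 1 with a line left out (1 without TERA1: NAP1L5). In EC on feeders against ES the count was 0 under quantile normalisation, with the array code as a block, with later codes only, with all 14 arrays in 1 fit, and 0 to 1 with a line left out, the call being lost without any one line except H9. Member probesets called in EC on plastic against ES were 0 with later codes only, 5 with only those 3 EC lines, and 1 to 7 with a line left out (7 without H9, 5 without TERA1, 1 without NTERA2, Shef5, Shef 6 or Shef3). In EC on feeders they were 1 under quantile normalisation, median centring, dim features left out, the code block or later codes only, and 0 to 1 with a line left out. GNAS probesets with other usage on feeders were 1 with later codes only and 1 to 2 with a line left out. With later codes only, EC on feeders is the single array of 833KE, assumed to vary like the ES lines, so those values are no replicated check. Where a count moved, the cause was not tested. For feeders against plastic, the fit with no replicate block also called 0 clusters and 0 probesets, and the PEG3/ZIM2 difference stayed at -0.94.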
